A study of Homo sapiens with 4 samples.

Results

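The alternative splicing events of 8 genes that encode subunits of the SWI/SNF chromatin remodellers were measured in U87MG cells transfected with a decoy of the splicing factors RBFOX1 and RBFOX2. The genes are PBRM1, SMARCC2, SMARCB1, SMARCA4, SMARCA2, SMARCE1, ARID1A and ARID1B, and they were chosen by the measured inclusion differences between the decoy and the control, with earlier results of these libraries known. They hold 157 of the 121269 listed events, and 96 of the 72115 events with enough counts to be tested. Of the 157 events, 109 are skipped exons, 27 are pairs of mutually exclusive exons, 12 are alternative 3′ splice sites, 8 are alternative 5′ splice sites and 1 is a retained intron. Every difference between the decoy and control libraries given below for these genes comes from the contrast that chose them, and is a description without a test.

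SWI/SNF complexes use the energy of ATP to slide or evict nucleosomes, and their catalytic subunit is SMARCA4 (BRG1) or SMARCA2 (BRM). A shared core with SMARCC2, SMARCB1 and SMARCE1 is completed either by ARID1A or ARID1B, which define the BAF complex, or by PBRM1, which belongs to the PBAF complex. RBFOX proteins bind UGCAUG, or less tightly GCAUG, in introns, where sites before an exon are generally associated with its skipping and sites after an exon with its inclusion.

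U87MG is an established human glioma line, whose cell type the labels give as probably glioblastoma. All 4 libraries came from cells transfected with 2.5 µM of a single-stranded RNA oligonucleotide with 2′-O-methyl riboses, using lipofectamine 2000. The RBFOXi oligonucleotide carries tandem copies of the RBFOX1/2 binding motif, and the scrambled oligonucleotide (SCRM) was the control. Each condition had 2 biological replicates of this 1 line, and the labels give the oligonucleotide of RBFOXi replicate 1 alone a Cy5 dye, so that dye and replicate cannot be told apart within that group.

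Each event was summarised by its percent spliced in (PSI), written here as a fraction from 0 to 1. PSI is the share of the inclusion form, such as an exon kept in the mRNA, after the counts of each form are divided by its effective length. Delta PSI is the mean of the RBFOXi libraries minus the mean of the SCRM libraries. The libraries held between 114415530 and 136097319 counts over the skipped exon table, in which a read is counted once for every event it fits. Skipped exon events of VIM, FN1, TNC, CD44 and SPARC, markers of mesenchymal glioma cells, reached between 13095 and 185009 counts in every library. No event was listed for the astrocyte markers GFAP, AQP4 and S100B, for RBFOX3, EPCAM, CDH1, PTPRC or CD3E, which in an event table says nothing of a gene's level. Events of the neuronal genes SYT1 and SNAP25 reached 8 to 808 counts, those of the epithelial KRT8 153 to 247, and those of the leukocyte marker CD68 45649 to 65957.

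SCRM replicate 1 held fewer counts in the 5′ parts of the SWI/SNF mRNAs than SCRM replicate 2. This was seen in 56 annotated exons of the 8 genes with a mean PSI above 0.95 and at least 10 inclusion counts in every library, of which 51 had fewer counts in SCRM replicate 1. In SMARCA2 the ratio of SCRM replicate 1 to replicate 2 was 0.705 at 917 nt from the annotated 3′ end and 0.0817 at 5429 nt. In PBRM1 it lay between 0.0394 and 0.169 over 13 exons. SMARCB1 had higher ratios over 4 exons, which also fell, from 1.65 at 4001 nt to 0.876 at 4755 nt. The RBFOXi libraries showed no such spread, with replicate 1 to replicate 2 ratios from 0.536 to 1.02 over the same exons. PSI is a ratio within a library, but its precision in SCRM replicate 1 rests on few counts in several of these genes. Uneven counts along an mRNA may also enter the PSI of forms read at different places, such as mutually exclusive exons, which was not tested. The larger differences are also given without that library.

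**Figure D1:**
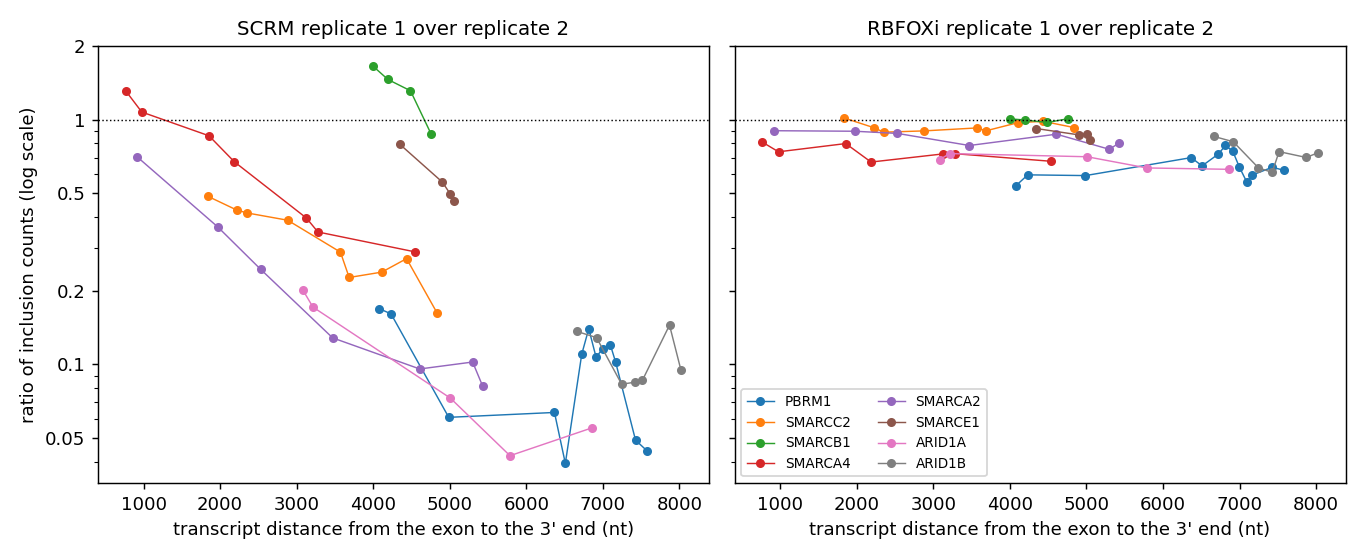
Ratio of inclusion counts between the replicates of a group (vertical axis, log scale) against the distance in nt from each exon to the annotated 3′ end of the transcript, for 56 exons of the 8 genes, each gene in its own colour and joined by lines. The SCRM ratios span 0.0394 to 1.65 and are lower farther from the 3′ end in most genes, whereas the RBFOXi ratios stay between 0.536 and 1.02.

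Of the 109 skipped exon events, 52 were tested. Of the 57 others, 55 had 3 or fewer skipping counts over the 4 libraries, which leaves no measurable alternative. Among the 52, 32 had a mean PSI above 0.95 and 5 a mean PSI under 0.05, so that most of these exons were kept or skipped nearly always in both conditions. The delta PSI of the 32 lay between -0.0877 and 0.0132, with 24 of them within 0.01 of 0. The remaining 15 events, 28.8% of those tested, had a mean PSI from 0.05 to 0.95, beside 30.0% of the 39615 skipped exon events tested in all genes. An event was called where limma gave an adjusted p-value under 0.05 and delta PSI reached 0.1 in either direction. Of the 52, 1 was called, the PBRM1 exon of 156 nt, beside 0.0682% of all tested skipped exons (27 of 39615). Its adjusted p-value from limma was 0.04985, close to the limit of 0.05. The PSI of the conditions did not overlap in 17 of the 52 events, beside 30.8% of all tested skipped exons. The median delta PSI was -0.00177 in the 52 events and -5.65e-05 in all tested skipped exons.

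**Figure D2:**
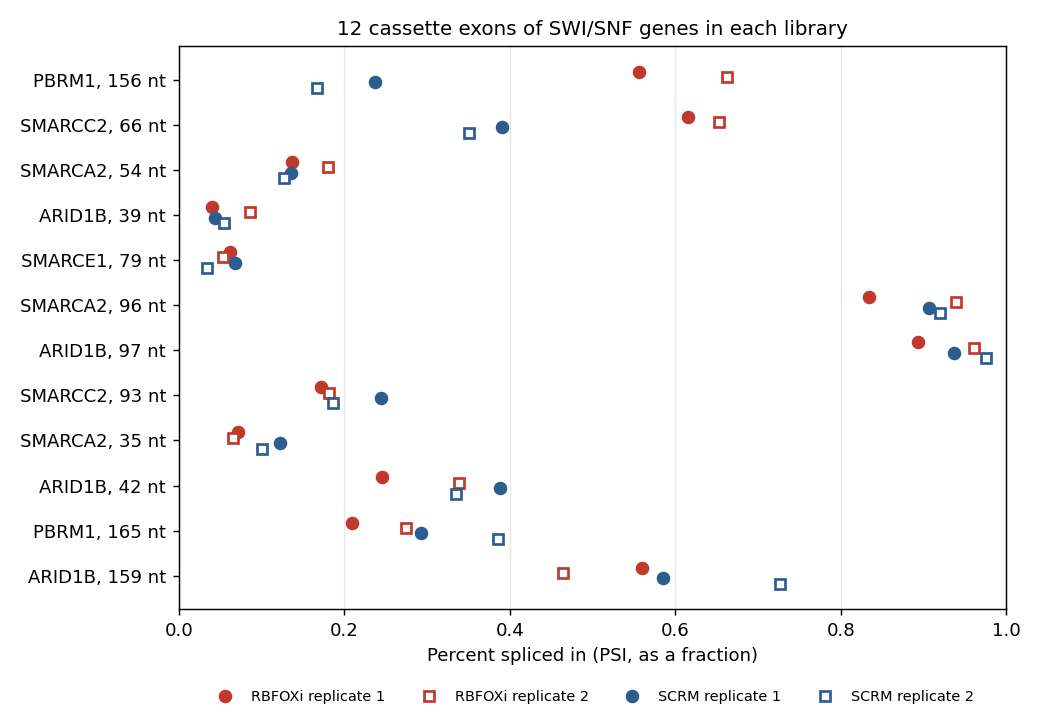
PSI (horizontal axis, fraction) of 12 cassette exons in each of the 4 libraries, RBFOXi in red and SCRM in blue, replicate 1 filled and replicate 2 open, with a small vertical offset per library; rows are sorted by delta PSI. The PBRM1 exon of 156 nt and the SMARCC2 66 nt, listed as a skipped exon, had the most separated conditions. Their RBFOXi libraries lay between 0.557 and 0.663 and their SCRM libraries between 0.167 and 0.391.

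PBRM1 (BAF180), the subunit with several bromodomains that recognises acetylated histones and is particular to PBAF, carried the widest separation among the cassette exons. Its exon of 156 nt lies at chr3:52588740-52588895 (hg19, minus strand) and is exon 29 of 32 in the canonical transcript PBRM1-221. It is wholly coding in the 6 protein-coding transcripts of GENCODE that hold exactly this exon, out of 9 that span it, and adds 52 codons without a shift of frame. The exon and the intron before it are shown because the 91 nt next to the exon hold the 6-base RBFOX motif 3 times. TGCATG is in capitals in the intron and its last 5 bases, GCATG, in the exon, both read 5′ to 3′ on the strand of the gene from the GRCh37 genome.
Intron before PBRM1 exon 29, chr3:52588896-52588986: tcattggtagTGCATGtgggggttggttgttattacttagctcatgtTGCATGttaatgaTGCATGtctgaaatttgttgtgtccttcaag
PBRM1 exon 29, chr3:52588740-52588895: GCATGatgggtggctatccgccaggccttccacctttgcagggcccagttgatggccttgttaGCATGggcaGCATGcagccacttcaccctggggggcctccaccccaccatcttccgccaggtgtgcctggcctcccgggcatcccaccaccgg

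The copies in the intron end 75, 38 and 25 nt before the exon, and the exon itself holds GCATG 3 times, at its first base and after 63 and 72 nt. Of 30617 distinct skipped exons tested in all genes, 8.47% had at least 1 TGCATG in the 300 nt before the exon and 22 (0.0719%) had 3 or more. The count of 3 or more was made after the PBRM1 sequence had been seen.

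Against the junction that skips both exon 28 and itself, exon 29 had a PSI of 0.557 and 0.663 in the RBFOXi libraries and 0.237 and 0.167 in the SCRM libraries. The conditions did not overlap, with a mean of 0.610 ± 0.0749 (SD, n = 2) under RBFOXi and 0.202 ± 0.0498 (SD, n = 2) under SCRM, a delta PSI of 0.408. These values rest on 222 and 337 counts in RBFOXi and on 58 and 327 counts in SCRM. Without SCRM replicate 1 the delta PSI was 0.443, and over all libraries left out in turn it lay between 0.355 and 0.461. The call was lost without RBFOXi replicate 2, without SCRM replicate 1 and without SCRM replicate 2, each of which leaves 1 library in a condition.

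Exon 28 of PBRM1, directly before exon 29 in the mRNA, was a cassette exon too. It has 165 nt at chr3:52592265-52592429 (minus strand) and is coding in PBRM1-201, PBRM1-206 and PBRM1-221, with 55 codons. Against the junction from exon 27 to exon 29, exon 28 had a PSI of 0.209 and 0.274 in RBFOXi and 0.293 and 0.386 in SCRM, a delta PSI of -0.0981 with no overlap. This value was -0.145 without SCRM replicate 1, which had 30 counts, and -0.0516 without SCRM replicate 2. Against the junction from exon 27 to exon 30, the PSI of exon 28 was 0.217 and 0.437 in RBFOXi and 0.126 and 0.145 in SCRM. That delta PSI of 0.192 had no overlap either, but the opposite sign. Against the junction from exon 28 to exon 30, exon 29 had a PSI of 0.923 and 0.982 in RBFOXi and 0.848 and 0.571 in SCRM, a delta PSI of 0.243 on 19 counts in SCRM replicate 1.

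The inclusion counts of these events are not separate, since reads inside an exon count in both of its events whichever neighbour the mRNA holds. None of these PSI values is therefore a share among the mRNAs with, or without, the neighbouring exon, whereas the skipping counts are junction reads of 1 isoform each. The junction from exon 27 to exon 30, which skips both exons, had 44 and 46 counts in RBFOXi and 29 and 199 in SCRM. The junction from exon 27 to exon 29 had 92 and 148 counts in RBFOXi and 14 and 60 in SCRM. The junction from exon 28 to exon 30 was rare, with 3 and 1 counts in RBFOXi and 1 and 18 in SCRM. Beside the junction that skips both exons, it made up 6.38% (95% Wilson interval 2.20 to 17.2) and 2.13% (0.377 to 11.1) in RBFOXi and 3.33% (0.591 to 16.7) and 8.29% (5.31 to 12.7) in SCRM, which overlapped. Exon 27 was thus joined to exon 29 more often than to exon 30 in both RBFOXi libraries, and less often in both SCRM libraries. As a share of the junctions from exon 27 to exon 29 or 30, without a length correction, the join to exon 29 was 67.6% (95% Wilson interval 59.4 to 74.9) and 76.3% (69.8 to 81.7) in RBFOXi. It was 32.6% (20.5 to 47.5) and 23.2% (18.4 to 28.7) in SCRM. The intervals cover counting error only. These junctions also enter the skipped exon events of the contrast that chose the gene, so the intervals are no test of the conditions. The pair was also listed as mutually exclusive exons, and there the share of exon 28 was 0.181 and 0.283 in RBFOXi and 0.316 and 0.458 in SCRM, a delta PSI of -0.155 that lay between -0.226 and -0.0843 with 1 library left out.

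**Figure D3:**
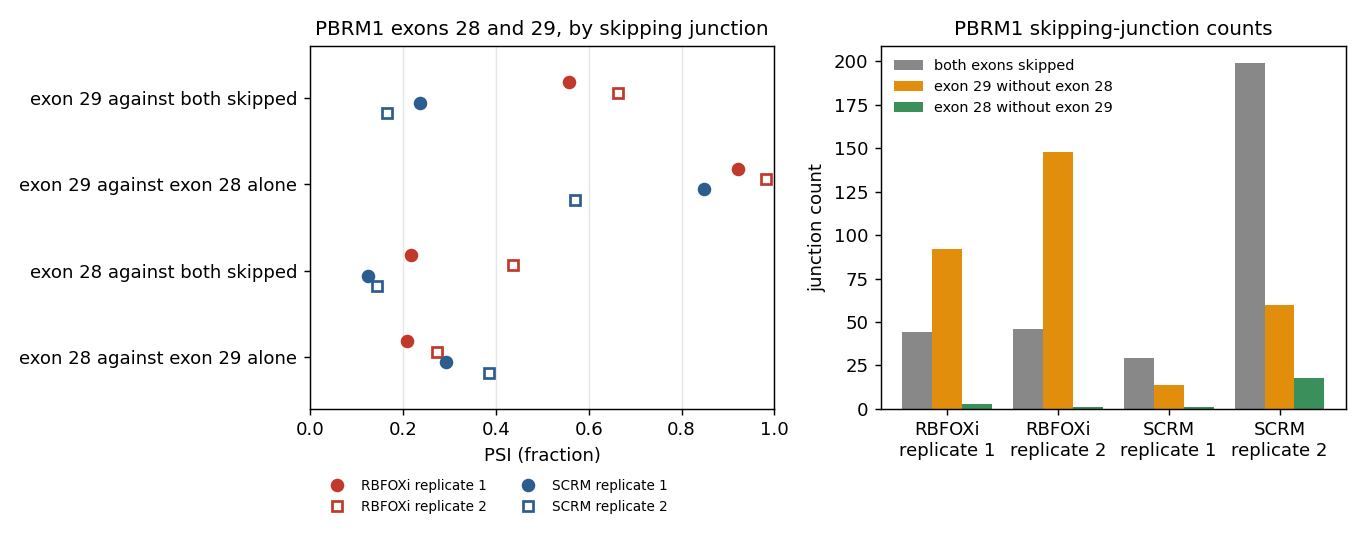
Left, PSI (fraction) of PBRM1 exons 28 and 29 in each library, against the skipping junction named on the axis, where alone means without the other exon; RBFOXi in red, SCRM in blue, replicate 1 filled, replicate 2 open. Right, bars of junction counts per library for both exons skipped, exon 29 without exon 28 and exon 28 without exon 29; SCRM replicate 2 had 199 counts for both skipped and 60 for exon 29 alone, and RBFOXi replicate 2 had 46 and 148.

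SMARCC2 (BAF170), a scaffold subunit of the core, had the next most separated of the described skipped exon events. The event concerns 66 nt at chr12:56558087-56558152 (hg19, minus strand), which are coding in SMARCC2-201, SMARCC2-203 and SMARCC2-209 and absent from the other of the 4 protein-coding transcripts spanning it. GENCODE gives these 66 nt as an exon of their own in SMARCC2-203 only. In the canonical SMARCC2-209 they are the last part of exon 28, a single exon of 429 nt at chr12:56558087-56558515, whose short form in other transcripts has 84 nt at chr12:56558432-56558515. The 262 nt before the 66 nt are shown because they hold 1 TGCATG and 1 further GCATG, in capitals, and are intron in SMARCC2-203 but coding exon in the long form.
Before the SMARCC2 66 nt, chr12:56558153-56558414: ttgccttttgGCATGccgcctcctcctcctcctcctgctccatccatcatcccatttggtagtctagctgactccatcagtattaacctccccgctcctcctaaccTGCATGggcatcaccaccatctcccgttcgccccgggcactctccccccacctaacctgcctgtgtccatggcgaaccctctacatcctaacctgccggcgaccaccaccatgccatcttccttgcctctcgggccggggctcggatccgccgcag
SMARCC2 66 nt, chr12:56558087-56558152: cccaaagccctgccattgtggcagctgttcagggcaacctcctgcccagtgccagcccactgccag

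The TGCATG ends 150 nt before the 66 nt. Another lies 284 nt after them, in the intron.
After the SMARCC2 66 nt, chr12:56557787-56557812: agcagctgttTGCATGatgattgagt

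As a skipped exon, the 66 nt had a PSI of 0.616 and 0.653 in RBFOXi and 0.391 and 0.351 in SCRM. The means were 0.634 ± 0.0260 and 0.371 ± 0.0280 (SD, n = 2 each), a delta PSI of 0.263 with no overlap. The event had 267 to 450 counts per library, and the delta PSI lay between 0.244 and 0.283 with 1 library left out. As an alternative 5′ splice site, the 345 nt that separate the long from the short exon had a PSI of 0.686 and 0.713 in RBFOXi and 0.475 and 0.406 in SCRM, a delta PSI of 0.259. Without the division by effective length this delta PSI was 0.119. Both events count the same skipping junction, with 123 and 123 counts in RBFOXi and 140 and 196 in SCRM, so they are not separate measurements. Neither was called by limma over its whole table.

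The retained intron event of SMARCC2 shows which of the annotated forms carried the reads. Its intron is the stretch of 279 nt at chr12:56558153-56558431 that SMARCC2-203 removes from the long exon. Counts for the removed intron were 7 and 7 in RBFOXi and 3 and 13 in SCRM, against 1365 and 1564, and 661 and 696, for the kept form. The removed form was thus 0.446% to 1.83% of the counts of this event in every library, before the division by effective length. Most counts of this event were therefore compatible with the exon of 429 nt, and few with a separate exon of 66 nt. These counts belong to the 279 nt and its junctions, not to the 66 nt themselves. Reads inside the 66 nt fit the long exon as well as a separate exon. The skipped exon PSI of the 66 nt is therefore not that of a separate cassette exon alone. After the division by effective length, which is 315 nt for the kept and 50 nt for the removed form, the removed form weighs more. The PSI of the kept form was then 0.969 and 0.973 in RBFOXi and 0.972 and 0.895 in SCRM, which overlapped.

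**Figure D4:**
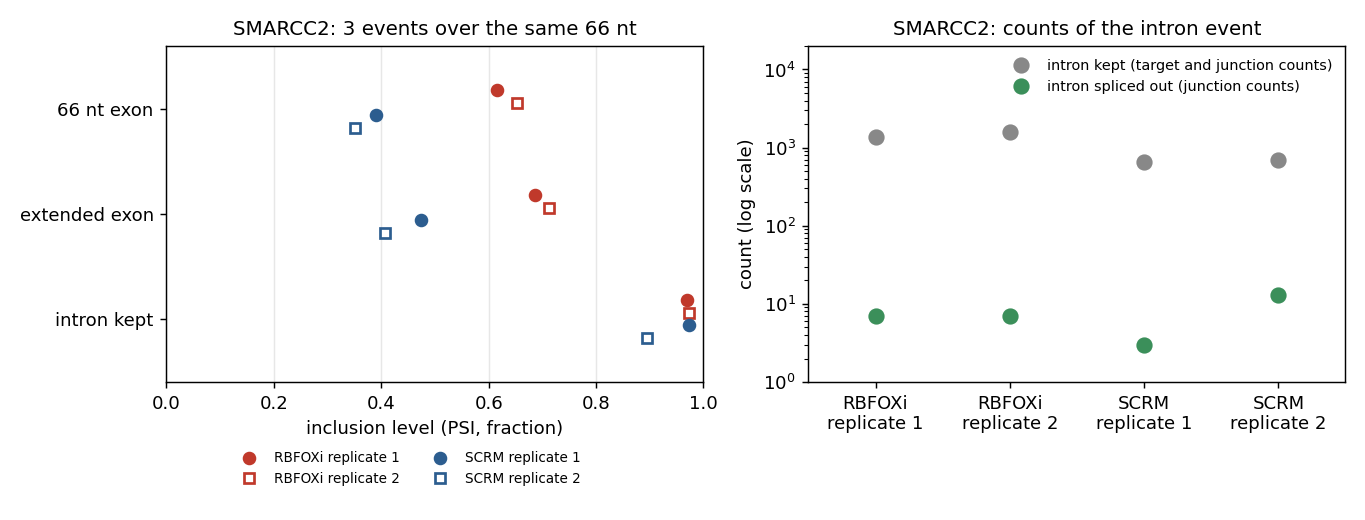
Left, inclusion level (PSI, fraction) of 3 SMARCC2 events in each library, with RBFOXi in red, SCRM in blue, replicate 1 filled and replicate 2 open. The 66 nt exon and extended exon events hold the 66 nt, and the kept intron is the 279 nt directly before them. Right, counts (log scale) of the intron event per library, 1 point per form, kept form in grey and spliced form in green; the spliced form had 3 to 13 counts where the kept form had 661 to 1564.

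SMARCC2 has a coding cassette exon of 93 nt, exon 18 of SMARCC2-209, at chr12:56566721-56566813. Its PSI was 0.172 and 0.181 in RBFOXi and 0.245 and 0.187 in SCRM, on 239 to 651 counts. The conditions did not overlap, but the difference in means of -0.0390 was smaller than the spread of the SCRM replicates (SD 0.0410). Against skipping to the acceptor of exon 19 that lies 3 nt further on, with 47 to 159 counts, the same exon had a PSI of 0.509 and 0.659 in RBFOXi and 0.808 and 0.582 in SCRM, which overlapped. The 300 nt before it hold GCATG 1 time, 108 nt from the exon, and no TGCATG.

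Among the DNA-binding subunits that define BAF, ARID1B had 4 described cassette exons and ARID1A none. The ARID1B exon of 159 nt (exon 11 of ARID1B-220, chr6:157495981-157496139, plus strand, coding) had a PSI of 0.560 and 0.465 in RBFOXi and 0.585 and 0.727 in SCRM. The conditions did not overlap, with a delta PSI of -0.144. It was -0.215 without SCRM replicate 1, which had 67 counts, -0.0726 without SCRM replicate 2 and -0.0962 without RBFOXi replicate 2. The closest pair of libraries from the 2 conditions, 0.560 and 0.585, lay nearer to each other than the replicates of either condition.

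The ARID1B exon of 42 nt (chr6:157357969-157358010), annotated as coding in 2 transcripts, had a PSI of 0.245 and 0.339 in RBFOXi and 0.389 and 0.336 in SCRM. The exon of 97 nt (exon 17, chr6:157519945-157520041) had 0.893 and 0.962 in RBFOXi and 0.938 and 0.976 in SCRM, and its length does not keep the frame. The exon of 39 nt (chr6:157192748-157192786, coding in ARID1B-202) was mostly skipped, with 0.0401 and 0.0857 in RBFOXi and 0.0443 and 0.0552 in SCRM. All 3 of these exons overlapped between the conditions, and SCRM replicate 1 had only 30 to 44 counts in each. The exon of 39 nt is followed after 146 nt by a TGCATG, shown with 10 nt to each side to set it beside the PBRM1 sites.
After the ARID1B 39 nt exon, chr6:157192923-157192948: cctgtgcaggTGCATGtcctgcttga

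Of the ATPases, SMARCA2 had 3 described cassette exons and SMARCA4 none. The SMARCA2 exon of 54 nt (exon 29 of SMARCA2-203, chr9:2170419-2170472, plus strand) is coding in 8 transcripts and adds 18 codons. Its PSI was 0.137 and 0.180 in RBFOXi and 0.136 and 0.127 in SCRM, on 444 to 999 counts, a delta PSI of 0.0274 with no overlap. That difference was smaller than the spread of the RBFOXi replicates (SD 0.0306). No TGCATG or GCATG lay within 300 nt of this exon.

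The other 2 SMARCA2 exons lie before exon 28 and are absent from the canonical transcript. The exon of 96 nt (chr9:2159814-2159909) had a PSI of 0.835 and 0.939 in RBFOXi and 0.907 and 0.920 in SCRM, on 41 to 111 counts. The exon of 35 nt (chr9:2161001-2161035) is not coding in any of the transcripts that hold it. Its PSI was 0.0713 and 0.0653 in RBFOXi and 0.122 and 0.1001 in SCRM, on 36 to 84 counts. Only 2 to 5 of these counts per library were of the inclusion form. In these events the exon of 96 nt overlapped between the conditions and the exon of 35 nt did not. Against skipping from the donor at chr9:2158978, the 96 nt exon had 0.976 and 0.849 in RBFOXi and 1 and 1 in SCRM. That delta PSI of -0.0877 had no overlap and rested on 1 and 4 skipping counts in RBFOXi and 0 and 0 in SCRM. Against skipping from chr9:2158587 it had 0.980 and 0.929 in RBFOXi and 1 and 0.977 in SCRM, which overlapped. The exon of 96 nt has TGCATG 153 nt after it, the side opposite to that of the PBRM1 copies, and was mostly included in every library.
After the SMARCA2 96 nt exon, chr9:2160053-2160078: ttgacagcctTGCATGctgtatttat

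SMARCA4 had 7 tested skipped exon events, 4 with a mean PSI above 0.95 and 3 under 0.05. Its delta PSI stayed between -0.0033 and 0.0046. The rare exons of 99 nt (chr19:11144443-11144541) and 96 nt (chr19:11150134-11150229) had 1029 to 1470 counts per library. Their PSI was 0.0430 and 0.0362 in RBFOXi and 0.0410 and 0.0435 in SCRM for the first, and 0.0361 and 0.0305 in RBFOXi and 0.0289 and 0.0353 in SCRM for the second. At this depth, no difference between the conditions beyond the replicates was detectable in either.

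SMARCE1 (BAF57), the core subunit with an HMG box, had a described exon of 79 nt at chr17:38786460-38786538 (minus strand) between exons 10 and 11 of SMARCE1-202. Its PSI was 0.0623 and 0.0531 in RBFOXi and 0.0686 and 0.0345 in SCRM on 2019 to 2428 counts, which overlapped. SMARCB1 (SNF5), the core subunit lost in rhabdoid tumours, had 6 tested skipped exon events, all with a mean PSI above 0.95 and a delta PSI between -0.0020 and 0.0027. SMARCB1 was also the gene whose counts were least reduced in SCRM replicate 1.

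Matches of the RBFOX motif, of 6 or 5 bases, were found in or within 300 nt of 8 of the 12 cassette exons. The SMARCC2 66 nt are counted among them, as listed. In the 300 nt before the exon, 2 of 12 held TGCATG and 5 held GCATG in any context, beside 8.47% and 25.0% of all tested skipped exons. In the 300 nt after the exon, 3 of 12 held TGCATG and 6 held GCATG, beside 8.73% and 25.4%. Only the strand of the gene was searched, a TGCATG is also counted as a GCATG, and the window may run into a neighbouring exon, as it does before the SMARCC2 66 nt. Of all 46 distinct tested SWI/SNF exons, 4 held TGCATG before and 5 after the exon. A match is a stretch of letters and was not measured as a bound site. The flanks with only the 5-base match are shown with 10 nt to each side, for comparison with the 6-base sites above.
After PBRM1 exon 29, chr3:52588582-52588606: cagcagcaggGCATGtcttgtgcat
After PBRM1 exon 28, chr3:52592011-52592035: ctggctgtggGCATGgtctggtgat
Before the SMARCC2 93 nt exon, chr12:56566912-56566936: tggaacagtgGCATGagtgccccca
Before the SMARCA2 96 nt exon, chr9:2159686-2159710: gtagtaggtaGCATGaaacagcaga
Before the ARID1B 159 nt exon, chr6:157495723-157495747: cttgaagtaaGCATGgtggcgtact
After the ARID1B 159 nt exon, chr6:157496380-157496404: tctatacaaaGCATGcgagtgtgtt

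**Figure D5:**
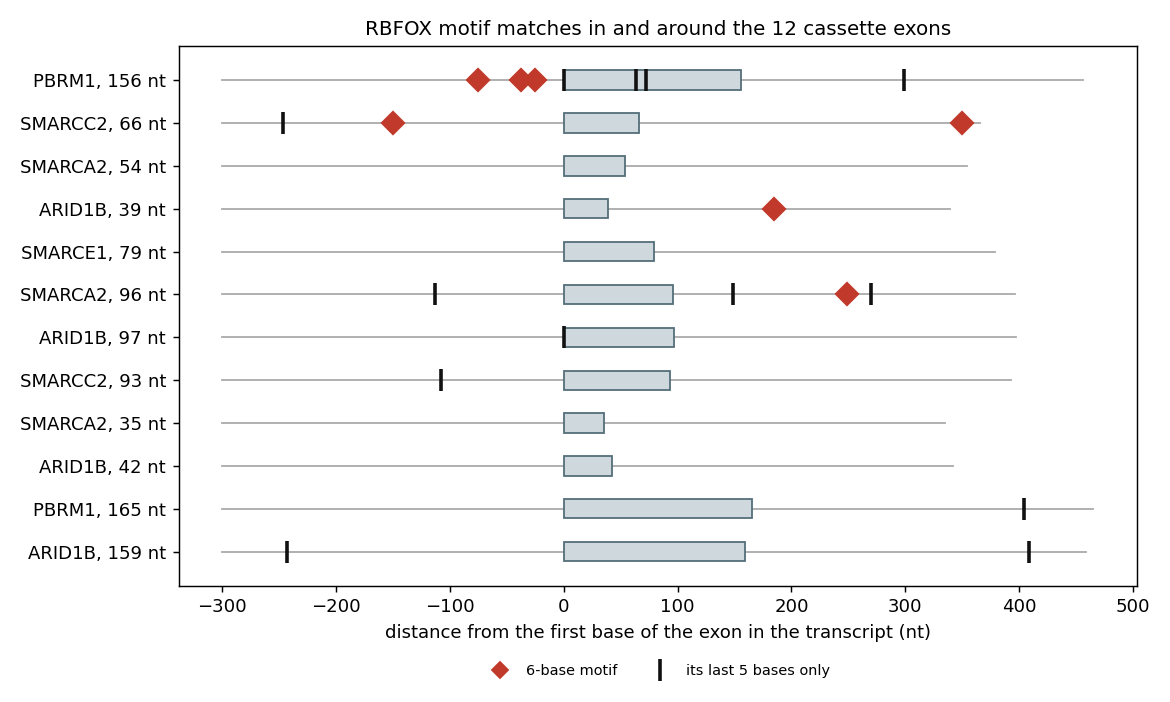
Positions of the 6-base RBFOX motif (red diamonds) and of its last 5 bases alone (black ticks) in and within 300 nt of the 12 cassette exons (boxes), as the distance in nt from the first base of the exon in the transcript, with rows in the order of the PSI plot. The PBRM1 exon of 156 nt is the one with 3 diamonds directly before it, 25 to 75 nt away.

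The other event types held 44 tested SWI/SNF events, and limma called 0 of them. At an unadjusted p-value under 0.05 there were 4, and a quasi-binomial F test called 1, the SMARCC2 alternative 5′ splice site. The share called in the whole tables was 0% for mutually exclusive exons, 0% for alternative 3′ splice sites, 0% for alternative 5′ splice sites and 0% for retained introns. Over these 32500 tested events, 595 had an unadjusted p-value under 0.05 and the quasi-binomial test called 8. The conditions did not overlap in 10 of the 44 events, beside 25.5% of all tested events of these types.

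SMARCB1 held the most deeply counted of the alternative 5′ splice sites. Its exon 2 ends with 27 nt at chr22:24134055-24134081 (hg19, plus strand) that are used or left out, which gives the known isoforms of the protein that differ by 9 residues. The site is shown with the 27 nt in capitals and 20 nt to each side.
SMARCB1 exon 2 end, chr22:24134035-24134101: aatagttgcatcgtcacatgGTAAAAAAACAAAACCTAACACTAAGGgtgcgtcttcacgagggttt

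The PSI of the 27 nt was 0.583 and 0.564 in RBFOXi and 0.647 and 0.687 in SCRM, on 1624 to 1828 counts. The means were 0.574 ± 0.0136 and 0.667 ± 0.0282 (SD, n = 2 each), a delta PSI of -0.0930 that lay between -0.113 and -0.0731 with 1 library left out. The long form was thus lower in both RBFOXi libraries than in either SCRM library. It was not called by limma, and its delta PSI was below the minimum of 0.1.

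SMARCA2 had an alternative 5′ splice site of 391 nt (chr9:2158588-2158978) with PSI of 0.170 and 0.295 in RBFOXi and 0.661 and 0.244 in SCRM. It rested on 23 to 42 counts, and its delta PSI of -0.220 was -0.0113 without SCRM replicate 1 and -0.429 without SCRM replicate 2. The delta PSI of this event thus hung on the library with the fewest counts. The other tested event of the same 391 nt, on 20 to 24 counts, had a PSI of 0.810 and 0.661 in RBFOXi and 1 and 0.803 in SCRM. Its delta PSI was -0.166 and the conditions overlapped.

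Of the alternative 3′ splice sites, 5 of the 7 described choose between acceptors 3 nt apart, which adds or removes 1 codon where it lies in coding sequence. In SMARCA4, the site of 3 nt at exon 31 (chr19:11168931-11168933) had a PSI of 0.689 and 0.715 in RBFOXi and 0.652 and 0.675 in SCRM. The site of 9 nt (chr19:11151974-11151982), on 1205 to 1650 counts, had 0.199 and 0.159 in RBFOXi and 0.188 and 0.161 in SCRM. The site of 3 nt at exon 2 (chr19:11094797-11094799), outside the coding sequence, had 0.681 and 0.736 in RBFOXi and 0.738 and 0.684 in SCRM. Only the first did not overlap between the conditions, with a delta PSI of 0.0383. The acceptors of the sites of 3 nt and 9 nt in coding sequence are shown with the alternative bases in capitals, because both forms were measured in every library.
SMARCA4 start of exon 31, chr19:11168911-11168953: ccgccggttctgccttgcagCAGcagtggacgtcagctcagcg
SMARCA4 9 nt site, chr19:11151954-11152002: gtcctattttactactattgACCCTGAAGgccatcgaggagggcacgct

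In ARID1A, the SWI/SNF subunit most often mutated in cancers, the acceptors 3 nt apart at exon 14 (chr1:27099303-27099305) gave 0.590 and 0.449 in RBFOXi and 0.294 and 0.453 in SCRM. The delta PSI of 0.146 was 0.0668 without SCRM replicate 1, which had 17 counts, and 0.226 without SCRM replicate 2, and the conditions overlapped. The acceptors of SMARCC2 exon 19 (chr12:56566486-56566488) gave 0.901 and 0.941 in RBFOXi and 0.967 and 0.914 in SCRM. In PBRM1, the site of 3 nt at exon 20 (chr3:52623269-52623271) gave 0.875 and 0.885 in RBFOXi and 0.778 and 0.903 in SCRM. The PBRM1 site of 75 nt at exon 21 (chr3:52621452-52621526) gave 0.863 and 0.925 in RBFOXi and 0.894 and 0.957 in SCRM. None of these sites was separated between the conditions.

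Of the 26 tested pairs of mutually exclusive exons, 24 joined exons that were each listed elsewhere with a mean PSI above 0.95 as skipped exons. Their PSI compares the reads of a pair of exons that are nearly always kept, and is not a choice between them. The PSI of a pair is here the share of the exon nearer the 5′ end of the mRNA. The 25 pairs other than PBRM1 exons 28 and 29 had a median delta PSI of 0.0149. In ARID1A, 2 pairs had PSI from 0.545 to 0.657 in RBFOXi and from 0.512 to 0.629 in SCRM. In ARID1B, 4 pairs had delta PSI from 0.0018 to 0.0371. In SMARCC2, 3 pairs lay between 0.0011 and 0.0164. Without SCRM replicate 1 the pairs of ARID1B lay between -0.0573 and 0.0471 and those of SMARCC2 between -0.0390 and -0.00298. Of the 26 tested pairs, 20 had a higher PSI in RBFOXi, beside 67.3% of the 26176 tested in all genes, whose median delta PSI was 0.01002. The cause of this direction was not tested.

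The single pairs of SMARCB1, SMARCA4 and SMARCE1 had delta PSI of 0.0050, 0.0149 and -0.0160, with overlap in all 3. Without SCRM replicate 1, which had 6204, 959 and 563 counts there, they were -0.0173, -0.0130 and -0.04555. The pair of SMARCA2 had 0.970 and 0.894 in RBFOXi and 0.740 and 0.901 in SCRM on 39 to 101 counts, a delta PSI of 0.112 that was 0.0311 without SCRM replicate 1. In PBRM1 the 4 described pairs of other exons had delta PSI from -0.148 to 0.0947, on as few as 26 counts in SCRM replicate 1. The 2 pairs farthest from 0 had 26 and 38 counts in that library. Without it, the delta PSI of the first fell from 0.0947 to 0.00865 and that of the second turned from -0.148 to 0.0489.

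The other genes of the same complexes were counted over the same tables. Of 24 listed genes of other BAF, PBAF and ncBAF subunits, 16 had tested skipped exons, with 62 events and a median delta PSI of 0.00154. limma called 0 of the 62, with 3 at an unadjusted p-value under 0.05 and 0 by the quasi-binomial test. Their 51 tested events of the other types gave 0 calls by either test, 0 at an unadjusted p-value under 0.05 and a median delta PSI of 0.00453. Of 13 ATPases of other remodeller families, 11 had tested skipped exons, with 46 events, 0 calls by either test, 1 at an unadjusted p-value under 0.05 and a median delta PSI of -0.00269. Their 41 events of the other types gave 0 calls by either test, 1 at an unadjusted p-value under 0.05 and a median of 0.00510.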

How the data were processed

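RNA-seq of U87MG cells (2 RBFOXi and 2 SCRM libraries) was analysed from the 5 deposited event tables. For the deposited tables, the authors kept unique STAR 2.4.2a alignments to hg19 and ran rMATS with UCSC known genes. The deposited counts are raw numbers of reads that fit the longer or the shorter form of an event, in its region or at its junctions, and the deposited effective lengths are in nt. The deposited p-values, FDR and inclusion level differences are the authors' comparison and were not used.

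PSI was computed per library and differed from the deposited inclusion levels by at most 0.0005. The linear model was limma 3.58.1 (R 4.3.3) on log2 odds of the inclusion form (pseudocount 0.5), with a variance trend over event information and Benjamini-Hochberg adjustment within each type over all tested events, and the fit was tested on simulated data. An event was tested if no library had under 5 counts, the mean reached 20 and each form had 4 counts in all. The p-values compare the difference between the conditions with the spread between these replicates, moderated across events. In RBFOXi this spread includes the Cy5 dye of replicate 1. Between-library scaling cancels in PSI.

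The genes, and the lists of other subunits, other remodellers and cell type markers, were chosen with earlier results of these data known. Events with the same alternative region were taken as 1 region, shown by its event with the most counts, and regions with a tested event and a mean PSI from 0.05 to 0.95 were described, at most 5 per gene and type. Mutually exclusive pairs other than PBRM1 exons 28 and 29 were given by gene, a choice made after their values were seen. Only uniquely aligned reads were counted, and reads that SMARCA2 and SMARCA4 or overlapping transcripts share were not separated further. Sequences came from GRCh37, which is hg19 (AG before 99.98% and GT after 98.7% of 30617 tested exons), read with pysam 0.24.0, and annotation from GENCODE 44 lifted to it. Alternatives were other pseudocounts, count minimums and delta PSI minimums, PSI without lengths, a quasi-binomial test, the replicate block and each library left out.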

Additional observations from a re-analysis of the deposited data

How the results depend on the processing

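The 1 skipped exon call, PBRM1 exon 29, was also made with a pseudocount of 1, with a minimum of 1 or 20 counts per library, with the quasi-binomial test, with delta PSI minimums of 0.05 and 0.2 and with PSI without lengths. With a pseudocount of 0.1 there were 0 calls among these genes. With the replicate block there were 2 calls, PBRM1 exon 29 and the SMARCC2 66 nt, and 0 of the other types. The replicate numbers of the labels name no shared batch, deviations of same-numbered libraries correlated with 0.0944, and the samples share only a number. Leaving out 1 library at a time gave 0 to 1 skipped exon calls and 0 to 2 calls of the other types. The calls of the other types were the SMARCC2 alternative 5′ splice site without RBFOXi replicate 1 or 2, and 2 pairs of PBRM1 exons without SCRM replicate 2. These fits assume that the lone library of a condition varies like the others. For the other types, the quasi-binomial test gave 1 call, the SMARCC2 alternative 5′ splice site. The delta PSI of PBRM1 exon 29 was 0.387 without lengths and 0.243 in its event with exon 28 as a flank, and the SMARCC2 66 nt had 0.256 without lengths and 0.244 to 0.283 with 1 library left out. No other tested skipped exon event held the SMARCC2 66 nt. A further 21 described regions were compared, without the mutually exclusive pairs other than PBRM1 exons 28 and 29. Of these, 19 moved by less than the replicate SD without lengths. The SMARCC2 alternative 5′ splice site, however, fell to 0.119, and the SMARCA2 exon of 35 nt went from -0.0430 to -0.0299. With 1 library left out, the sign changed in 11 values of 8 of these 21 regions. It also changed in most of the described pairs that were not compared here. Over all genes, the 27 skipped exon calls became 1 with a pseudocount of 0.1, 40 with 1, 44 with a minimum of 1 count, 45 with the quasi-binomial test, 119 with the replicate block and 1 to 69 with 1 library left out. The 0 calls of the other types became 2 with a pseudocount of 1, 8 with the quasi-binomial test, 77 with the replicate block and 5 to 1412 with 1 library left out, the highest without SCRM replicate 2. The causes were not tested. The depth of SCRM replicate 1 limits the values that rest on few counts there. Whether its uneven counts along the mRNAs also shift the PSI of mutually exclusive pairs was not tested.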
